A study of Homo sapiens with 18 samples.

Results

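The genes described are the cyclin-dependent kinase (CDK) inhibitors of the INK4 family (CDKN2A, CDKN2B, CDKN2C and CDKN2D) and of the CIP family (CDKN1A and CDKN1B), together with CDKN3. They were taken by name: every array probe whose RefSeq identifier belongs to one of these symbols was included, whatever its signal. This gave 7 genes with 10 probes, out of 19720 genes with a named probe and 42327 probes on the array, of which 15844 genes were tested. The samples were EpCAM+ cells isolated by flow cytometry from 2 human hepatocellular carcinoma (HCC) lines, Huh1 and Huh7. The lines had received disulfiram (DSF, a drug against alcohol dependence) at 0.1 µM or 5-fluorouracil (5-FU, an antimetabolite) at 1 µM for 48 h, or neither drug. Each of the 6 groups, line by treatment, had 3 arrays, and the methods describe them as independent experiments. The study asked how the transcriptome of this tumor-initiating fraction responds to each drug. The methods list DSF together with copper chloride and do not say what the controls received, so DSF and copper cannot be told apart here.

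CDK inhibitors restrain the passage of cells through the division cycle. INK4 proteins bind CDK4 and CDK6 and keep D-type cyclins from activating them, which holds the retinoblastoma protein in its growth-restraining form, whereas CIP proteins bind complexes of CDK2 with cyclins E and A and are themselves degraded through the SKP2 ubiquitin ligase. CDKN3, despite its symbol, encodes a phosphatase that removes an activating phosphate from CDK2. In liver cancer the INK4 locus is often silenced, and CDKN1A is the classical target of p53.

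All 10 probes were well above background on all 18 arrays, so no member was lost to the filter on dim probes. Levels are given as log2 signal of a probe minus the 75th percentile of its array, so that 0 is that percentile. They can be compared between groups for a probe but not between genes. A gene with several probes is described by the brighter one. Between 59.9% and 71.1% of probes per array were well above background. EPCAM was detected on all 18 arrays, with means of 2.62 in Huh1 control and 5.49 in Huh7 control, and was lower after DSF, with changes of -0.66 in Huh1 and -0.50 in the other line (limma, adjusted p = 0.00633 and 0.0294). ALB, KRT8, KRT18 and SERPINA1 were also detected on all arrays. Among markers of other cells, CD3E, COL1A1, COL1A2 and ACTA2 were above background on 6, 11, 2 and 4 arrays. PTPRC, PECAM1, CDH5, CD68 and VIM were above it on all 18, with highest levels from -4.33 for PTPRC to 6.26 for VIM. Of the 7 markers of other cells tested, DSF in Huh1 had 1 call upward and 1 downward, against 2 and 1 for DSF in Huh7, 1 and 2 for 5-FU in Huh1, and 3 and 0 for 5-FU in Huh7. Of the 8 markers of the sorted cells, 0 were called upward and 7 downward for DSF in Huh1, 2 and 5 for DSF in Huh7, 2 and 3 for 5-FU in Huh1, and 3 and 2 for 5-FU in Huh7. The part of these shifts in the results was not tested. In RNA from bulk samples, fewer cells of a kind and less RNA per cell cannot be told apart.

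Replicate arrays were not equally far apart. Over 10286 bright probes the median absolute deviation of the log2 difference between arrays of a group ran from 0.0437 (Huh1 5-FU replicates 2 and 3) to 0.225 (Huh7 5-FU replicates 1 and 3), and 9 of 18 pairs lay under 0.1. In the Huh1 control, Huh1 5-FU and Huh7 DSF groups replicate 1 stood apart from the others. The p-values measure the spread between these arrays. Of the 25 member changes called between a drug and its control, 9 were still called when arrays closer than 0.1 were averaged to 1 value, which left 11 values in 6 groups. These were CDKN2B in all 4 comparisons, CDKN1A after 5-FU in both lines, CDKN2C after 5-FU in Huh1, and CDKN2D and CDKN3 after DSF in Huh1. Averaging left 1 value each in Huh1 DSF and Huh7 control, so a lost call there does not by itself mean a smaller change. The changes of CDKN1A after DSF, for example, were then 0.45 in Huh1 and -0.77 in Huh7, against 0.51 and -0.77 before. Huh7 DSF replicates 2 and 3 lay on a slide of their own and were scanned on another day than the other arrays. Results of members that change without them are given both ways. For other genes no values without them are given, so their calls after DSF in Huh7 rest on all 3 arrays.

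The bases in front of the transcription start are shown for the 5 members that changed in the same direction in both lines after at least 1 drug. The share of all genes that did so is not given. Each sequence is the 250 bases before a start in RefSeq on GRCh38.p14, written 5′ to 3′ on the strand of the gene. Capitals mark matches, on either strand, to the GC box GGGCGG, the E2F sites TTTCGCGC and TTTGGCGC, the cell-cycle CHR elements TTTGAA and TTTAAA, the metal response cores TGCACNC and TGCGCNC, and the E-box CACGTG.
CDKN2B, chr9:22009306-22009555, minus strand: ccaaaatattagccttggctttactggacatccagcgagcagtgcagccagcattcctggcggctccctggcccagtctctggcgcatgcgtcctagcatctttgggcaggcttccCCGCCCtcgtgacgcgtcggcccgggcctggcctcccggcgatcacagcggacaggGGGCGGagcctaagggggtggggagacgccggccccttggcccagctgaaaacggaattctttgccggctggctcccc
CDKN2C (the middle of its 3 starts), chr1:50968456-50968705, plus strand: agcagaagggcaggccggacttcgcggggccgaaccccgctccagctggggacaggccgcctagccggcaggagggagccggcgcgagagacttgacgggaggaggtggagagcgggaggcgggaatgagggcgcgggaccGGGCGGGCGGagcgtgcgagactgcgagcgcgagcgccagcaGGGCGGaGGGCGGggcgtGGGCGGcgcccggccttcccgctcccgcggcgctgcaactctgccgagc
CDKN1A, chr6:36678464-36678713, plus strand: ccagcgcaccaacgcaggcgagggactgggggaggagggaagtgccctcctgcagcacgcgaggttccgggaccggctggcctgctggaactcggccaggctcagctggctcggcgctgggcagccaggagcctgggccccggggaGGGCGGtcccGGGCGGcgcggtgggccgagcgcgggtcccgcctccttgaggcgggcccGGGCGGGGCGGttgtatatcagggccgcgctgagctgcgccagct
CDKN1B, chr12:12717118-12717367, plus strand: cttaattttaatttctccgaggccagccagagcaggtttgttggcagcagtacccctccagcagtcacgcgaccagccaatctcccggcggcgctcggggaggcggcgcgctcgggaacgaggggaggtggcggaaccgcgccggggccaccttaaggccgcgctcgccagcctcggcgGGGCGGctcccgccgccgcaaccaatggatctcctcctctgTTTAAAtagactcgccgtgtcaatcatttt
CDKN3, chr14:54396757-54397006, plus strand: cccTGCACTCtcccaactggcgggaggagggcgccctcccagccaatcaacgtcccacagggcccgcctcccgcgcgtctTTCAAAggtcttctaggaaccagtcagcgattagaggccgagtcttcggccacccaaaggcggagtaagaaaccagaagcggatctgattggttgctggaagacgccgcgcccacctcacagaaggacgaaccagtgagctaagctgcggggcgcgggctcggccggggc

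The GC box was the motif these windows shared most. It had 2 matches for CDKN2B, 5 for the middle start of CDKN2C, 4 for CDKN1A and 1 for CDKN1B, and among 34941 promoters of this length 42.5% held at least 1. The window of CDKN3 held none, but held 1 CHR element and 1 metal response core, which 21.9% and 24.8% of promoters hold. A CHR element also lay 30 bases before the CDKN1B start. The outer starts of CDKN2C, not shown, each held 1 E-box, and the last of them also 1 GC box. An E-box is found in 6.32% of promoters. No E2F site of these spellings, found in 0.956% of promoters, was present in any window of these 5 genes. Neighbouring GC boxes overlapped once in the CDKN2C window and once in that of CDKN1A, and no other matches overlapped. A match describes letters in the window only.

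CDKN2B, which encodes the INK4 protein p15, was the 1 member called higher with both drugs in both lines. In Huh1 its level was -3.96, -3.29 and -3.27 on the control arrays, -2.09, -2.04 and -2.12 after DSF, and -2.26, -1.48 and -1.49 after 5-FU. In Huh7 it was -5.68, -5.73 and -5.47 in control, -3.75, -3.48 and -3.42 after DSF, and -2.66, -2.66 and -2.75 after 5-FU. Every treated array lay above every control array of its line. With DSF the rise was 1.42 ± 0.20 (log2, SE) in Huh1 and 2.08 ± 0.20 in Huh7, which is 2.68-fold and 4.22-fold (limma, adjusted p = 5.81e-05 and 2.07e-06). 5-FU raised it by 1.76 ± 0.20 in Huh1 and 2.94 ± 0.20 in Huh7, or 3.39-fold and 7.67-fold (adjusted p = 8.46e-06 and 2.57e-08). The order of the group means ran from Huh7 control at -5.63 over Huh7 DSF at -3.55 and Huh1 control at -3.51, whose arrays overlapped, to Huh7 5-FU at -2.69, Huh1 DSF at -2.08 and Huh1 5-FU at -1.75, and the arrays of the last pair overlapped too. CDKN2B was dim in Huh7 control, and background correction by normexp reduced the rises in Huh7 to 0.81 after DSF and 1.40 after 5-FU, both still called.

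CDKN2C, which encodes the INK4 protein p18, went the other way and fell with both drugs in both lines, except that scaling on spike-in RNA turned the 5-FU value in Huh7 to 0.45. In Huh1 the control arrays read 2.32, 1.96 and 1.95, the DSF arrays 0.93, 0.86 and 0.92, and the 5-FU arrays 1.01, 0.28 and 0.26. In Huh7 the control arrays read 2.34, 2.39 and 2.33, the DSF arrays 1.85, 1.56 and 1.66, and the 5-FU arrays 1.35, 2.16 and 1.96. Treated and control arrays did not overlap in either line, although the 5-FU arrays were widely spread. After DSF the falls were 1.17 in Huh1 and 0.67 in Huh7 (SE 0.21, limma, adjusted p = 0.000341 and 0.0169). The Huh7 call was lost without Huh7 DSF replicate 2 (-0.60, adjusted p = 0.0614) and without both arrays of the separate slide (-0.51, adjusted p = 0.264). After 5-FU it fell by 1.56 in Huh1 cells (SE 0.21, adjusted p = 2.95e-05) and by 0.53 in Huh7 (adjusted p = 0.0408). The last value is weak: without Huh7 5-FU replicate 1 it was -0.29 with adjusted p = 0.209, and the call was lost without any 1 of the Huh7 control arrays (adjusted p = 0.0739 to 0.0908), with median scaling (adjusted p = 0.0553), with the slide block (adjusted p = 0.055), with no filter on dim probes (adjusted p = 0.0602) and with only the compared groups in the fit (adjusted p = 0.0761).

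**Figure D1:**
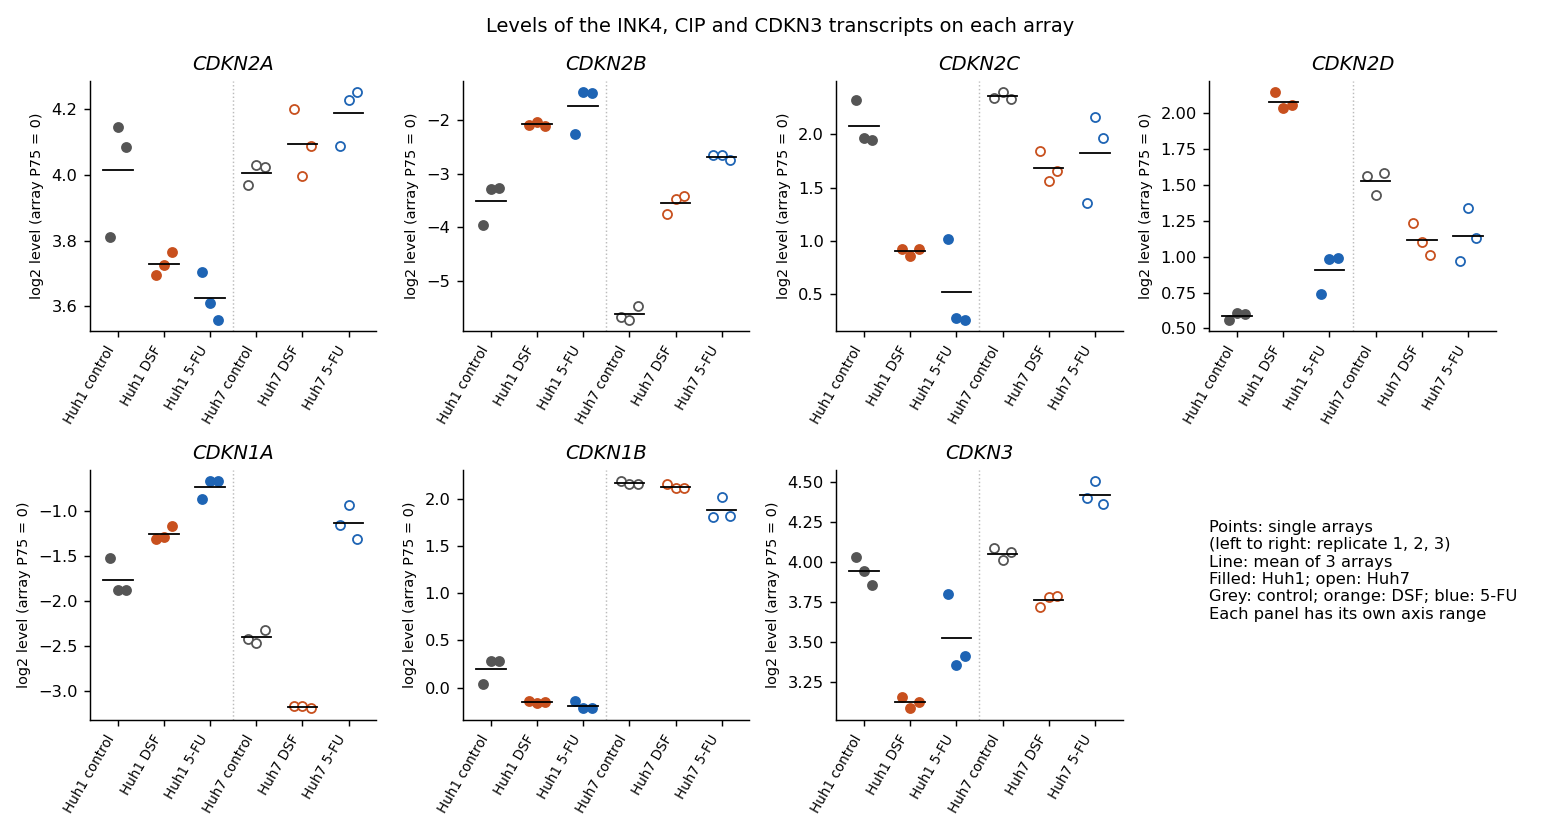
Level of each gene on every array, as log2 signal relative to the 75th percentile of the array (vertical axis, different range in each panel), for the 6 groups. Points are arrays and lines are means of 3, and the CDKN2B points rise from control to either drug in both lines while the CDKN2C points fall on this scale.

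CDKN2D, which encodes the INK4 protein p19, answered in opposite directions in the 2 lines, although after 5-FU spike-in scaling turned the fall in Huh7 to a value of 0.60. Its Huh1 arrays read 0.56, 0.60 and 0.60 in control, 2.14, 2.04 and 2.06 after DSF, and 0.74, 0.98 and 0.99 after 5-FU. Its Huh7 arrays read 1.56, 1.43 and 1.58 in control, 1.23, 1.1 and 1.01 after DSF, and 0.97, 1.34 and 1.13 after 5-FU. In Huh1 all treated arrays lay above the controls and in Huh7 all lay below. DSF raised CDKN2D by 1.49 ± 0.10 in Huh1, or 2.81-fold (limma, adjusted p = 3.49e-08), which made Huh1 DSF the highest group. In Huh7 DSF lowered it by 0.41 ± 0.10 (adjusted p = 0.00287), or by 0.29 without the 2 arrays on their own slide (adjusted p = 0.132). 5-FU raised it by 0.32 in Huh1 (adjusted p = 0.0133), a call lost without Huh1 5-FU replicate 2 or 3 (adjusted p = 0.0553 and 0.0572) or with median scaling (adjusted p = 0.0518). In Huh7 5-FU lowered it by 0.38 (adjusted p = 0.00338).

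CDKN2A, which encodes p16 and, from another reading frame, ARF, was bright, and its changes were small relative to the 75th percentile of the arrays. Its brighter probe read 3.81, 4.15 and 4.08 in Huh1 control, 3.69, 3.73 and 3.77 after DSF, and 3.70, 3.61 and 3.56 after 5-FU. In Huh7 it read 3.97, 4.03 and 4.02 in control, 4.20, 4.0 and 4.09 after DSF, and 4.09, 4.23 and 4.25 after 5-FU. In Huh1 every treated array was below every control array, with falls of 0.29 after DSF and 0.39 after 5-FU (SE 0.08, limma, adjusted p = 0.0136 and 0.00168). The DSF call was lost without Huh1 control replicate 2 or 3 (adjusted p = 0.0703 and 0.0551), with only the compared groups in the fit (adjusted p = 0.0642) and with spike-in scaling (-0.15, adjusted p = 0.486), and spike-in scaling turned the 5-FU value to 0.44. In Huh7 the changes of 0.09 after DSF (95% confidence interval -0.09 to 0.27), a sign that spike-in scaling turned, and 0.18 after 5-FU (0.0003 to 0.37) were not called (adjusted p = 0.414 and 0.0812). The latter was called without Huh7 5-FU replicate 1 (0.23, adjusted p = 0.0452), with quantile normalization or normexp (0.23 each, adjusted p = 0.029 and 0.03), and with spike-in scaling, where it was 1.17 (adjusted p = 3.08e-06). The dimmer CDKN2A probe fell by 0.43 and 0.38 in Huh1 and moved by 0.14 and 0.21 in Huh7, of which the Huh1 values were called. The files list the brighter probe under the RefSeq transcript NM_058197 and the dimmer one under NM_000077, the transcript of p16, and which other transcripts of the gene each probe reads was not tested. CDKN2A and CDKN2B are closely similar genes, and binding of one transcript to the probe of the other was not tested.

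Of the CIP genes, CDKN1A, which encodes p21, was higher after 5-FU than after DSF in both lines. The drugs moved it in opposite directions in Huh7 only. Its level in Huh1 was -1.53, -1.88 and -1.88 in control, -1.31, -1.29 and -1.17 after DSF, and -0.87, -0.67 and -0.67 after 5-FU. In Huh7 it was -2.42, -2.47 and -2.33 in control, -3.17, -3.17 and -3.19 after DSF, and -1.16, -0.93 and -1.32 after 5-FU. The Huh7 DSF arrays formed the lowest group and differed from each other by less than those of any other group (SD 0.01). After 5-FU CDKN1A was higher by 1.03 ± 0.11 in Huh1 and 1.27 ± 0.11 in Huh7, or 2.04-fold and 2.41-fold (limma, adjusted p = 3.69e-06 and 1.94e-07). DSF raised it by 0.51 for Huh1 and lowered it by 0.77 in Huh7 (SE 0.11, adjusted p = 0.00153 and 5.06e-05). With close arrays averaged both DSF calls were lost (adjusted p = 0.244 and 0.0715), as was that of DSF against 5-FU in Huh1 (adjusted p = 0.179). MDM2, another p53 target, rose after 5-FU by 0.55 in Huh1 and 0.94 in Huh7 (adjusted p = 0.00419 and 3.88e-05). After DSF the mean of MDM2 was -1.05 against -0.89 in control in Huh1, and -0.48 against -0.82 in Huh7. In each line these MDM2 means moved in the other direction from CDKN1A. No test of MDM2 after DSF is given here, so they are not read as changes. The SE of its 5-FU changes was 0.14. A part of p53 in these changes was not tested.

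CDKN1B, which encodes p27, differed far more between the lines than between treatments. Its brighter probe, printed in 10 spots per array, read 0.04, 0.28 and 0.28 in Huh1 control, -0.14, -0.16 and -0.16 after DSF, and -0.14, -0.22 and -0.21 after 5-FU. In Huh7 it read 2.19, 2.15 and 2.16 in control, 2.16, 2.11 and 2.11 after DSF, and 1.81, 2.02 and 1.82 after 5-FU. All Huh7 arrays lay above all Huh1 arrays. After 5-FU the Huh1 level fell by 0.39 ± 0.07 and the Huh7 level by 0.29 ± 0.07 (limma, adjusted p = 0.000425 and 0.00332), directions that spike-in scaling turned to 0.44 and 0.70. It fell after DSF by 0.35 in Huh1 (adjusted p = 0.001), a call lost with spike-in scaling (-0.22, adjusted p = 0.223), but the change of -0.04 in Huh7 was not called (95% confidence interval -0.19 to 0.12, adjusted p = 0.692). The dimmer CDKN1B probe gave -0.14 after 5-FU in Huh1, which was not called (adjusted p = 0.112).

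CDKN3, the phosphatase, fell after DSF in both lines and diverged after 5-FU, where spike-in scaling turned the fall in Huh1 to 0.41. Its brighter probe read 4.03, 3.94 and 3.86 in Huh1 control, 3.16, 3.09 and 3.13 after DSF, and 3.80, 3.36 and 3.41 after 5-FU. In Huh7 it read 4.09, 4.01 and 4.06 in control, 3.72, 3.78 and 3.79 after DSF, and 4.40, 4.51 and 4.36 after 5-FU. Treated and control arrays did not overlap in any of the 4 comparisons. With DSF the Huh1 level fell by 0.82 ± 0.09 and the Huh7 level by 0.29 ± 0.09 (limma, adjusted p = 8.28e-06 and 0.0213). The Huh7 call was lost without Huh7 control replicate 1 or 3 or Huh7 DSF replicate 1 (adjusted p = 0.0635, 0.0543 and 0.0516), and without the 2 arrays on their own slide (-0.33, adjusted p = 0.107). 5-FU lowered it by 0.42 in Huh1 and raised it by 0.37 in Huh7 (SE 0.09, adjusted p = 0.00211 and 0.00384), the former lost with only the compared groups in the fit (adjusted p = 0.0548). The dimmer probe gave the same signs, at -0.82, -0.28, -0.51 and 0.30, and each of its values was called.

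Across the members, DSF in Huh1 was accompanied by 3 genes called higher and 4 lower, where 26.4% and 26.3% of the 15844 genes tested were called in each direction. In Huh7 DSF gave 1 higher and 4 lower, against 29.1% and 24.1% of all genes. For 5-FU the counts were 3 higher and 4 lower in Huh1, against 25.9% and 29.1%, and for Huh7 they were 3 and 3, against 32.5% and 31%. Calls were this common on the whole array, and the counts of members were near or above those shares in both directions except for the single rise after DSF in Huh7. The median change of the members was -0.29 after DSF in both lines, and -0.39 in Huh1 and 0.18 in Huh7 after 5-FU, beside medians of -0.02, 0.04, -0.03 and -0.01 over all genes tested.

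The scale of the arrays matters for 5-FU. Relative to the spike-in RNA, the 75th percentile of the arrays was higher after 5-FU than in control by 0.83 in Huh1 and 0.98 in Huh7 (log2), against 0.13 and -0.18 after DSF. Scaled on the spike-ins, 6 members were called upward and 1 downward by 5-FU in Huh1, against 6 and 0 for Huh7. All genes then split into 12167 upward and 218 downward calls for Huh1, and 12585 and 594 for Huh7. For DSF this scaling called 3 members upward and 2 downward in Huh1, and for Huh7 the numbers were 1 and 4. All genes then split into 3910 upward and 1664 downward calls for Huh1, and 1667 and 3937 for Huh7. The changes given above are therefore relative to the bulk of transcripts on the array. CDKN2B rose after both drugs and CDKN1A after 5-FU in both lines under each scaling run, and CDKN2C fell in Huh1 under each.

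**Figure D2:**
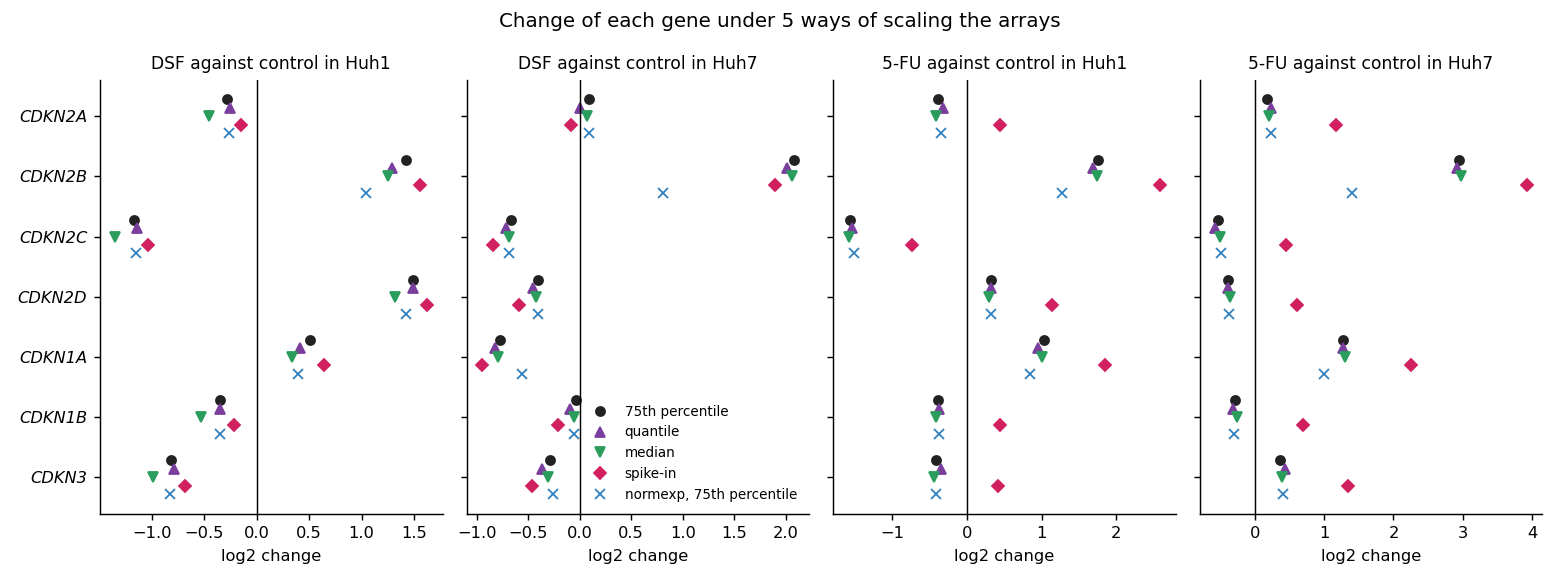
Log2 change of each gene (horizontal axis) in the 4 comparisons of a drug with control, computed with 5 ways of scaling or background correction. The spike-in values (diamonds) lie to the right of the 75th-percentile values (black circles) by 0.83 in Huh1 and 0.98 in Huh7 after 5-FU, which moves 6 of the negative changes above 0, and the normexp values (crosses) of CDKN2B in Huh7 lie at 0.81 and 1.40.

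The response to DSF differed between the lines for 5 members, of which 3 had a higher and 2 a lower change in Huh7 than in Huh1, where 24.3% and 21.9% of all genes tested were called. Spike-in scaling left 0 higher and 2 lower, and quantile normalization 1 and 2. Over all genes tested these scalings called 820 higher and 4074 lower, and 3716 and 3653, in turn. The largest difference was that of CDKN2D, with a change in Huh7 minus that in Huh1 of -1.90 ± 0.13 (limma, adjusted p = 2.44e-07), followed by CDKN1A at -1.28 ± 0.15 (adjusted p = 2.09e-05). CDKN3 differed by 0.53 (adjusted p = 0.00603), and by 0.49 without the 2 Huh7 DSF arrays on their own slide (adjusted p = 0.0532), which also ended the call of CDKN1B (0.35, adjusted p = 0.0658). CDKN2A and CDKN1B differed by 0.37 and 0.32 (adjusted p = 0.0234 and 0.0225), both also lost without Huh1 control replicate 2 or 3 (adjusted p = 0.0624 and 0.056 for CDKN2A, 0.0583 and 0.0577 for CDKN1B). The dimmer CDKN1B probe gave 0.08 (adjusted p = 0.546). Spike-in scaling ended the calls of CDKN1B, CDKN2A and CDKN3 (0.0056, 0.063 and 0.22, adjusted p = 0.985, 0.853 and 0.429). The call of CDKN2A was lost as well without Huh1 DSF replicate 1 (adjusted p = 0.0517) or Huh7 control replicate 1 (adjusted p = 0.0525). The differences of 0.66 for CDKN2B (95% confidence interval 0.04 to 1.27), which normexp correction turned to -0.23, and 0.51 for CDKN2C (-0.12 to 1.14) were not called (adjusted p = 0.0837 and 0.182), that of CDKN2B being called without Huh1 control replicate 1 (0.88, adjusted p = 0.0141), with median scaling (0.81, adjusted p = 0.0399) and with the replicate block (adjusted p = 0.0375), and that of CDKN2C with only the compared groups in the fit (adjusted p = 0.0179).

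The response to 5-FU also differed between the lines for 5 members, 4 with a higher and 1 with a lower change in Huh7, beside 23.7% and 20% of all genes. Spike-in scaling left 4 and 0, beside 2880 and 1318 of the 15844 genes tested. CDKN2B rose by 1.18 ± 0.29 more in Huh7 (limma, adjusted p = 0.00521), but normexp correction reduced this to 0.13 (adjusted p = 0.629). The changes of CDKN2C, CDKN3 and CDKN2A were higher in Huh7 by 1.03, 0.79 and 0.57 (adjusted p = 0.013, 0.000392 and 0.00194), and that of CDKN2D was lower by -0.70 (adjusted p = 0.00107), a call lost with spike-in scaling (-0.54, adjusted p = 0.0722). CDKN1A and CDKN1B differed by 0.24 (95% confidence interval -0.08 to 0.57) and 0.11 (-0.11 to 0.32, and -0.11 with the dimmer probe), which were not called (adjusted p = 0.241 and 0.455).

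**Figure D3:**
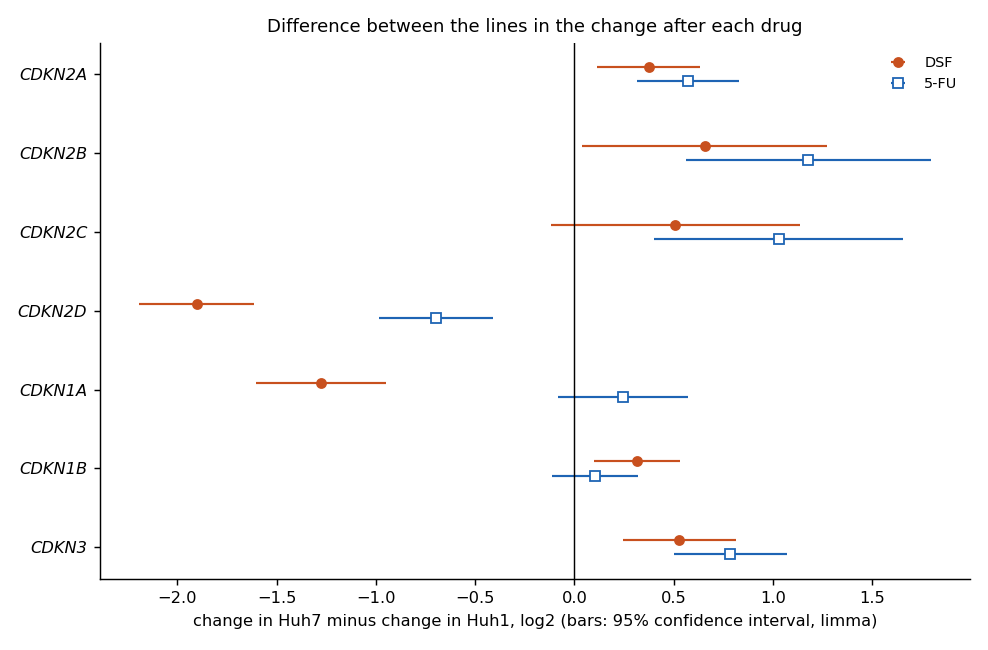
Change in Huh7 minus change in Huh1 (log2, horizontal axis) for each gene after DSF (circles) and 5-FU (open squares), with 95% confidence intervals from limma. The DSF points of CDKN2D and CDKN1A lie farthest from 0, at -1.90 and -1.28.

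Set against 5-FU, DSF left 1 member higher and 2 lower in Huh1, where 30.5% and 25.3% of all genes were called. For Huh7 the numbers were 1 and 3, where 34.5% and 30.7% of genes were called. Spike-in scaling made the split 1 to 5 for Huh1 and 0 to 7 for Huh7, and median scaling made it 0 to 3 for Huh7. Over all 15844 genes tested the spike-in splits were 814 to 10642 and 417 to 13461, so the members moved with the whole array. The median-scaling split of all genes for Huh7 was 4727 to 4956. These comparisons share their arrays with those against control. CDKN1A was lower after DSF than after 5-FU by -0.52 in Huh1 and -2.04 in Huh7, which is 1.43-fold and 4.12-fold (limma, adjusted p = 0.00111 and 2.26e-09). CDKN3 was also lower in both lines, by -0.40 and -0.66 (adjusted p = 0.00278 and 3.25e-05). CDKN2D was higher by 1.17 in Huh1 (adjusted p = 3.16e-07), while in Huh7 the difference of -0.03, which turned to 0.09 without the 2 arrays on their own slide, had a 95% confidence interval of -0.24 to 0.17. CDKN2B was lower by -0.86 in Huh7 (adjusted p = 0.00215). In Huh1 its difference of -0.34 and that of CDKN2C of 0.39, which spike-in scaling turned to -0.31, were not called, but without Huh1 5-FU replicate 1 both were, at -0.60 and 0.63 (adjusted p = 0.0115 and 0.0123). CDKN1B was higher by 0.25 in Huh7 (adjusted p = 0.00796), which spike-in scaling turned to -0.91, and the call was lost without the 2 arrays on their own slide (0.28, adjusted p = 0.0526), with median scaling (adjusted p = 0.0872), with only the compared groups (adjusted p = 0.0676) and with the dimmer probe (0.15, adjusted p = 0.0889). CDKN2A, at -0.09 in Huh7, was called with quantile normalization (-0.23, adjusted p = 0.0301).

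Without drug, Huh7 exceeded Huh1 for 2 members and fell short of it for 2, while 39.3% and 38.6% of all genes were called higher and lower. CDKN1B was 3.91-fold higher in Huh7 (log2 difference 1.97 ± 0.07, limma, adjusted p = 4.34e-12), and its dimmer probe gave 2.05. CDKN2D was higher by 0.94 (adjusted p = 4.7e-07). CDKN2B was lower by -2.12 and CDKN1A by -0.64 (adjusted p = 2.41e-07 and 8.52e-05). After normexp correction the CDKN2B difference was -0.89. For CDKN2A, CDKN2C and CDKN3 the differences of -0.01, 0.28 and 0.11 were not called (95% confidence intervals -0.19 to 0.18, -0.17 to 0.72 and -0.09 to 0.31). The signs for CDKN2A and CDKN3 depend on the scaling, and quantile normalization called CDKN3 (0.26, adjusted p = 0.0255). The control arrays of the 2 lines lay on different slides, so slide and line cannot be told apart in this comparison except through the 1 Huh1 DSF array on the slide of the Huh7 controls.

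The neighbours of the INK4 locus on chromosome 9 moved differently by gene, drug and line. MTAP, a gene of the methionine salvage pathway that lies beside CDKN2A, fell in Huh1 by 0.41 after DSF and 0.59 after 5-FU (limma, adjusted p = 0.000709 and 3.38e-05) and moved by 0.13 and 0.14 in Huh7, neither of which was called. CDKN2B-AS1, the antisense RNA of the locus, was above background on 2 of 3 Huh1 control arrays and 1 of 3 Huh7 control arrays. After 5-FU it was above background on all arrays, at -3.43, -2.41 and -2.47 in Huh1 and -4.86, -3.92 and -3.55 in Huh7, against -7.65, -4.88 and -5.42, and -7.22, -6.44 and -5.94, in control. It rose after 5-FU in both lines (adjusted p = 0.000364 and 0.00228) and after DSF in Huh1 (adjusted p = 0.025), whereas after DSF in Huh7, where CDKN2B rose by 2.08, its change of 0.13 was not called (adjusted p = 0.871). DMRTA1 was not well above background on any Huh7 control array and was at least 2.73-fold higher there after DSF (adjusted p = 8.11e-07). It changed by -0.06 after DSF in Huh1 (adjusted p = 0.864). After 5-FU DMRTA1 rose by 0.98 in Huh1 (adjusted p = 0.00257) and was at least 1.37-fold higher in Huh7, where 1 of 3 arrays was above background (adjusted p = 3.53e-05) and normexp correction turned the change to -0.17. CDKN2B, CDKN2B-AS1 and DMRTA1 were thus all called higher after 5-FU in both lines with the main scaling. Normexp correction reduced the CDKN2B-AS1 rises after 5-FU from 3.21 to 1.32 in Huh1 and from 2.42 to 0.59 in Huh7.

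CDKN1C, the remaining CIP gene and not one of the members, encodes p57. It was not well above background on any Huh1 control array and was at least 1518-fold higher in Huh1 after DSF, where its 3 arrays read 4.83, 4.70 and 4.67 (limma, adjusted p = 7.04e-15). In Huh7 its DSF arrays read -3.46, -3.65 and -3.32 against -3.66, -3.52 and -3.68 in control, and the ranges overlapped (change 0.14, adjusted p = 0.499). None of the 7 members changed by a comparable amount in that group, and CDKN2D rose by 1.49 there.

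**Figure D4:**
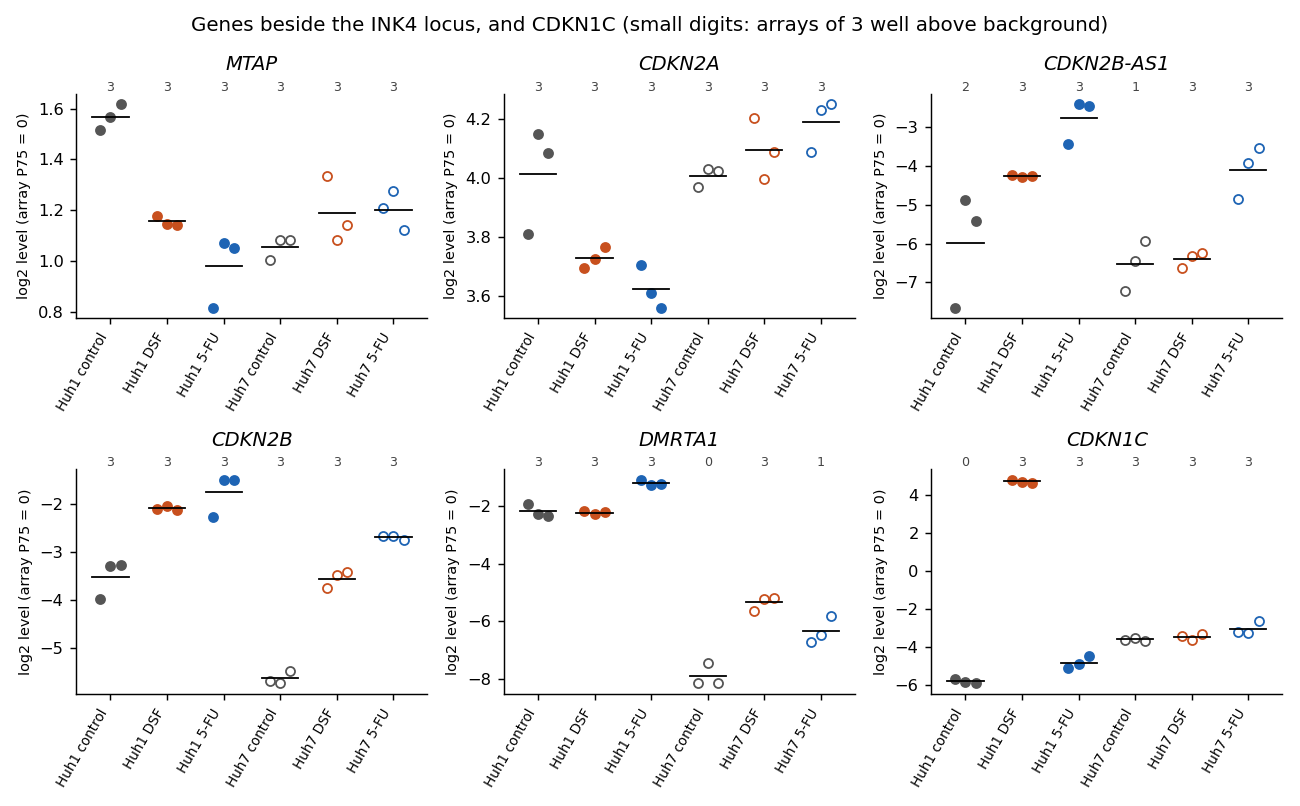
Levels of MTAP, CDKN2A, CDKN2B-AS1, CDKN2B and DMRTA1, and of CDKN1C, on every array (log2 signal relative to the 75th percentile of the array, different range in each panel). Small digits count the arrays of 3 that were well above background, and CDKN1C stands at 4.67 to 4.83 in Huh1 DSF only.

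The partners, targets and regulators of these inhibitors were taken from a list of 74 genes, of which 72 were tested. With DSF the list gave 19 rises and 27 falls for Huh1 (26.4% and 26.3% of all genes) but 26 rises and 15 falls for Huh7 (29.1% and 24.1%). With 5-FU it gave 19 and 26 for Huh1 (25.9% and 29.1%), then 34 and 23 for Huh7 (32.5% and 31%). The percentages are those of all tested genes, and many of these counts lie near them. In the same order, spike-in scaling made these 18 and 11, 1 and 11, 56 and 2, and 66 and 1. Over all 15844 genes tested it gave 3910 and 1664, 1667 and 3937, 12167 and 218, and 12585 and 594. Median scaling made the DSF counts of Huh1 10 and 38, where all genes gave 2691 and 6034. Genes called in the same direction in both lines numbered 8 higher and 8 lower after DSF and 15 higher and 17 lower after 5-FU. The share of all genes called so in both lines is not given, so these counts have no reference. All 17 that were lower after 5-FU had the other sign in at least 1 line under spike-in scaling, so they are lower relative to the bulk of transcripts.

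The counts of the smaller groups below are to be read against the same percentages. Among the 7 tested CIP targets 1 rose and 4 fell after DSF in Huh1, 2 rose and 2 fell in Huh7, and after 5-FU 3 and 4, then 3 and 2, did so. CCNE1 (cyclin E1) rose with both drugs in both lines, by 0.61 and 0.49 after DSF and by 0.34 and 0.22 after 5-FU, in Huh1 and Huh7 in turn. CCNE2 (cyclin E2) and CDK2 rose after 5-FU, by 0.99 and 2.23, and by 0.38 and 0.91. Of the 4 tested INK4 targets all were called higher after 5-FU in Huh7, and CCND3, a D-type cyclin, rose after 5-FU by 0.37 and 0.74 in the lines in turn. The mitotic cyclin CCNB2 fell after DSF by 0.38 and 0.48 and after 5-FU by 1.39 and 0.52, and CCNB1 fell after 5-FU by 1.35 and 0.33. CCNH and CDK7, parts of the CDK-activating kinase, rose after DSF by 0.38 and 0.17 and by 0.91 and 0.37, the Huh7 value of CCNH turning to -0.01 with spike-in scaling. CCNH fell after 5-FU by 0.45 and 0.77. The inhibitory kinase gene PKMYT1 rose after 5-FU by 0.60 and 1.04. Of 10 proliferation markers 0 rose and 5 fell after DSF in Huh1, 3 and 2 did in Huh7, and 1 and 5, then 5 and 2, did after 5-FU, several of these counts being near the shares of all genes. TOP2A fell with both drugs (0.60 and 0.42, then 0.74 and 0.26), and after 5-FU BIRC5 fell by 0.59 and 0.46 while MCM2 rose by 0.43 and 0.87. E2F2 rose after 5-FU by 0.28 and 1.1, the pocket protein gene RBL2 fell by 0.29 and 0.54 after DSF and by 0.73 and 0.97 after 5-FU, and TFDP2 fell by 0.38 in both lines after DSF. Each value for a named gene here passed limma's test in its own line, and the falls after 5-FU are relative to the bulk of transcripts.

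SKP2, whose product marks p27 for destruction, fell after DSF from 0.35, 0.26 and 0.18 to -0.90, -1.03 and -0.95 in Huh1 and from 2.05, 2.03 and 2.15 to 1.32, 1.04 and 1.15 in Huh7. The falls were 1.22 and 0.91 (limma, adjusted p = 3.73e-06 and 5.87e-05), beside a CDKN1B transcript that fell by 0.35 in Huh1 and was not called in Huh7. After 5-FU SKP2 fell by 0.67 and 0.51 in Huh1 and Huh7. Of the 9 turnover genes DTL was higher with both drugs (0.38 and 0.22, then 0.66 and 0.99), and CUL4A, DDB1, RBX1 and SKP1 fell after 5-FU by 0.18 to 0.51. With quantile normalization the 5-FU values in Huh1 and Huh7 were -0.20 and -0.01 for RBX1 and -0.09 and -0.11 for SKP1. For CUL4A they were -0.48 and -0.54, and for DDB1 -0.165 and -0.38. Of the regulators of the inhibitor genes, ZBTB17 (MIZ1, a partner of MYC at CDKN2B) rose with both drugs, by 1.06 and 0.55 after DSF and 0.52 and 0.95 after 5-FU. MYC fell after 5-FU by 0.41 and 1.91. The polycomb genes BMI1 and EZH2, known repressors of the INK4 locus, rose after DSF by 0.33 and 0.49 and by 0.23 and 0.18, and CBX7 fell by 0.39 and 1.02. After DSF MDM4 also rose, by 1.33 and 0.37, and FOXO4 fell by 0.46 and 1.73 and SMAD2 by 0.38 and 0.21. After 5-FU ETS2, KLF6 and SMAD4 rose by 0.71 and 0.53, 0.83 and 0.67, and 0.23 and 0.27. ID1, TFAP4, SMAD2, FOXO4 and CBX7 fell after 5-FU, by 0.28 to 0.60 in Huh1 and 0.34 to 1.23 in Huh7. Quantile normalization brought ID1 to -0.23 in Huh1 and -0.02 in Huh7, while TFAP4, SMAD2, FOXO4 and CBX7 stayed near their values.

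As a description, the tested genes whose levels followed each member most closely over the 18 arrays were found by Pearson correlation among 15843 genes. The arrays fall into 6 groups of replicates, so these values mainly order the group means. For CDKN2B they were TNFRSF12A (0.98), EMC3 (0.98) and SIRT7 (0.98), and for CDKN2C they were ITSN1 (0.94), RFX2 (0.94) and WASHC4 (0.94). For CDKN2A they were LEPROT (0.93), FADS3 (0.92) and AP1M1 (0.92), and for CDKN2D they were RBM33 (0.96), FSCN1 (0.95) and GFPT1 (0.93). CDKN1A was followed by HAVCR1 (0.96), CLK4 (0.96) and TOX4 (0.96), and CDKN1B by HMGA2, SLC7A2 and PAICS (each 1.00 when rounded, 0.996 to 0.997). CDKN3 was followed by CLRN3 (0.99), ARHGEF37 (0.98) and ERBB3 (0.97). No member was among the 3 genes closest to another member. Only 3 of 15843 genes were kept for each, so this does not show whether the members followed each other. Correlations between members are not given.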

How the data were processed

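Per the labels, RNA was labelled with Cy3 and hybridized to 1-colour Agilent 8x60K arrays, 18 in all. The authors deposited scanner output of Agilent Feature Extraction 10.7.1.1, in which the processed intensity of each spot is background-subtracted and not scaled between arrays, and a table of intensity normalized in GeneSpring. Here log2 processed intensity was averaged over the unflagged spots of each probe, and the 75th percentile of the array was subtracted. The 29894 probes that stood well above background throughout 1 or more groups entered 1 limma fit over 6 groups (R 4.3.3, limma 3.58.1), and Benjamini-Hochberg adjusted p under 0.05 was a call. A gene was represented by its probe with the highest mean. Names came from RefSeq identifiers in a table of build GRCh38.p14, so no probe coordinates are given. The number of arrays limits the precision. The scanner files hold median signals, so normexp was run on those (offset 50). The test was tested on simulated data. Alternatives were quantile, median and spike-in scaling (7 spike-in probes), normexp, other filters, blocks for replicate number and slide, fewer groups, another variance model, the GeneSpring values, the second probe and leaving out each array. Leaving out the third slide's 2 arrays and averaging close arrays were chosen after seeing the data. The members, gene lists and naming rule (members; listed genes called in both lines; CDKN1C; the 3 most alike genes) were chosen with earlier results of these data known. The genes beside the INK4 locus and the cell markers were named outside that rule, after their values were seen. Figures were drawn with matplotlib 3.10.9 in Python 3.11.15. Protein sequences were not used here.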

Additional observations from a re-analysis of the deposited data

Results flagged for a closer look

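The change after a drug differed between the lines by limma's interaction term for 5 members per drug. For DSF, Huh7 minus Huh1 came to -1.28 for CDKN1A, 0.32 for CDKN1B, 0.37 for CDKN2A, -1.90 for CDKN2D and 0.53 for CDKN3. For 5-FU it was 0.57 for CDKN2A, 1.18 for CDKN2B, 1.03 for CDKN2C, -0.70 for CDKN2D and 0.79 for CDKN3. With close arrays averaged, CDKN2D after DSF was the 1 difference of these that was still called. Line and slide largely coincide. Within each line the control and 5-FU arrays lay on 1 slide, so a constant shift between slides cancels in the 5-FU differences. Some DSF arrays of each line lay on another slide than their controls. Beyond that, the parts of line and slide in these differences were not tested apart from the slide block.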

How the results depend on the processing

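Of 46 changes called for members, 39 kept their direction under every alternative and 18 stayed called under all of them. Of the 25 calls between a drug and control, 25 remained with quantile normalization, normexp or the replicate block, 23 with median scaling, 21 with the slide block, 17 with spike-in scaling and 9 with close arrays averaged (chosen after seeing the data). The number of arrays and, for CDKN2B in Huh7 control, signal near background limit these results, and the causes of the shifts below were not tested.

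With close arrays averaged the members called numbered 3 (DSF, Huh1), 1 (DSF, Huh7), 3 (5-FU, Huh1), 2 (5-FU, Huh7), 1 (DSF against 5-FU, Huh1), 1 (difference between lines, DSF) and 0 (difference between lines, 5-FU), where fewer values entered the fit. The share of all genes called is not given for this setting, for the slide block or without the separate slide. The pathway genes called then numbered 8, 5, 21 and 31 in the 4 comparisons with control. The slide block, and leaving out the Huh7 DSF arrays of the separate slide (chosen after seeing the data), each gave 2 members for DSF in Huh7 and 3 for the difference between lines. Spike-in scaling gave 6 and 7 members for DSF against 5-FU in Huh1 and Huh7 and 2 for the DSF difference between lines, for which quantile normalization gave 3. Spike-in scaling also gave 29 and 12 pathway genes for DSF in Huh1 and Huh7. The counts of all genes under these scalings stand beside the splits above.

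Signs turned as follows. With spike-in scaling CDKN2A became -0.089 for DSF in Huh7. For 5-FU CDKN1B, CDKN2A and CDKN3 became 0.44, 0.44 and 0.41 in Huh1, and CDKN1B, CDKN2C and CDKN2D became 0.70, 0.45 and 0.60 in Huh7. For DSF against 5-FU CDKN1B, CDKN2A and CDKN2C became -0.66, -0.59 and -0.31 in Huh1 and CDKN1B -0.91 in Huh7. Median scaling gave -0.11 for CDKN1B and -0.046 for CDKN2A there in Huh1, and the second probe gave -0.045 and -0.048 for them. The second probe gave -0.11 for CDKN1B in the 5-FU difference between lines, and normexp -0.23 for CDKN2B in the DSF one. The slide block and leaving out the separate slide both gave 0.012, 0.022 and 0.086 for CDKN2A, CDKN2C and CDKN2D in DSF against 5-FU in Huh7. Between the controls CDKN2A became 0.14 (quantile), 0.063 (spike-in), 0.023 (normexp) and 0.044 (close arrays averaged), and CDKN3 -0.047 (median).

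Leaving out 1 array at a time gave 3 to 5 members for DSF against 5-FU in Huh1, with 5 without Huh1 5-FU replicate 1, and 3 to 6 for the DSF difference between lines, with 3 without Huh1 control replicate 2 or 3. In DSF against 5-FU in Huh7, CDKN2C ranged from -0.37 to 0.030 and CDKN2D from -0.12 to 0.066. Between the controls CDKN2A ranged from -0.11 to 0.060. Same-numbered arrays did not deviate together (correlations -0.0932 to 0.0244 over 18 pairs). No pairing by number was thus seen, though deviations within so few arrays cannot exclude one. With the replicate block 4 members were called in the DSF difference between lines in place of 5: CDKN1B and CDKN2A were lost (adjusted p = 0.0543 and 0.0559) and CDKN2B was gained (adjusted p = 0.0375). It changed no other call of a member.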
